A study of Homo sapiens with 6 samples.

Results

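The genes described here encode solute carriers, the SLC superfamily of membrane transporters. They were chosen from the deposited expression tables by symbol (SLC, a family number, the letter A and a member number) and by level, with an FPKM (fragments per kilobase of transcript scaled to the mapped fragments of a library) over 1 in at least 1 of the 3 groups. Of 215 such symbols, 177 passed, and over all features 13749 of 17090 passed the same limit. The 177 genes fall into 44 families, grouped here by family number into 14 classes named after the main cargo of their families. Some members carry another cargo, so a class value is not a measure of the transport of that cargo.

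The values come from RNA-seq of K562, a human leukemia cell line with erythroid features that, per the paper, expresses neither isoform of the transcription factor C/EBPα. CTR cells carried an empty PiggyBac vector, CEBPA cells a Tet-inducible wild-type C/EBPα, and P30 cells a Tet-inducible p30, the truncated isoform that lacks the amino-terminal activation region. All 6 samples, 2 replicates in each group and CTR included, had been given doxycycline at 200 ng/ml for 48 hours, so the groups share the drug and the vector. The lines were stably transformed; whether each was a single clone is not given in the sources used here. Each group has 1 deposited FPKM per gene in which the replicates are pooled, so no SD, interval or test can be computed from these values. Whether a difference is larger than the spread between replicates cannot be judged from them. The paper tested differential expression with Cuffdiff on biological duplicates, and the outcomes of those tests were not used here.

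Solute carriers move nutrients, ions and metabolites across the plasma membrane and the membranes of organelles. Some exchange a solute for another, some couple uptake to a sodium or proton gradient, and others let their cargo follow its own gradient. In the erythroid lineage they supply glycine, iron and energy substrates for heme synthesis, whereas granulocytes rely on glucose uptake, lactate release and ion exchange. An SLC symbol groups genes by family and not by lineage, so both kinds of gene are in the set.

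A change is given as the difference of log2(FPKM + 1) between groups, which understates the change of genes with low FPKM. "At least 2-fold" means a difference of at least 1 on that scale. Lineage markers moved with the groups. All 6 erythroid markers with a row, of 10 listed, were at least 2-fold lower in CEBPA than in CTR, and their summed FPKM was 1730 in CTR cells, 569 in CEBPA cells and 1124 in P30 cells, where 2 of them were at least 2-fold lower. Of 8 granulocyte markers with a row, of 12 listed, 7 were at least 2-fold higher in CEBPA and 4 in P30, and their summed FPKM was 7.32 in CTR cells, 10050 in CEBPA cells and 36.3 in P30 cells. None of these markers was listed at 0 in any group. The part of this shift in the results that follow was not tested, and in these bulk samples fewer cells of a type and less RNA per cell cannot be told apart. The CEBPA transcript was not analysed here.

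Of the solute carriers a larger share than of all features differed between CEBPA and CTR, a difference of shares that was not tested. In CEBPA vs CTR, 56 of the 177 genes (31.6%) differed at least 2-fold, where 20.8% of all 13749 features did. Of these, 36 (20.3%) were higher in CEBPA, beside 13.9% of all features, and 20 (11.3%) were lower, beside 6.87%. The genes moved in both directions, so the median change was 0.02, near the -0.01 of all features, while the spread (scaled median absolute deviation) was 1.06 against 0.72. Only 36.2% of the genes lay within 0.5 of no change, against 51% of all features. The 14 genes that entered the set only through their CEBPA level had to be higher there. Between CEBPA and CTR alone, 15 genes were over 1 FPKM in CEBPA and not in CTR, and 7 the reverse.

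P30 cells were close to CTR cells. In P30 vs CTR, 2 of the 177 genes (1.13%) differed at least 2-fold, where 1.48% of all features did. A single gene, SLC16A3, was at least 2-fold higher, beside 0.924% of all features, and a single gene, SLC30A10, was lower, beside 0.553%. With a pseudocount of 0.1 in place of 1, 3 genes were at least 2-fold higher, SLC6A13 and SLC27A6 besides SLC16A3, and 4 lower, SLC22A17, SLC29A4 and SLC6A12 besides SLC30A10. The median change was 0.01 with a spread of 0.26, and 87.6% of the genes lay within 0.5 of no change, against 93.2% of all features. In CEBPA vs P30, which uses the same CEBPA libraries as CEBPA vs CTR, 44 genes (24.9%) differed at least 2-fold, where 18.6% of all features did. There 32 (18.1%) were higher in CEBPA, beside 12.9%, and 12 (6.78%) were lower, beside 5.69%.

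**Figure D1:**
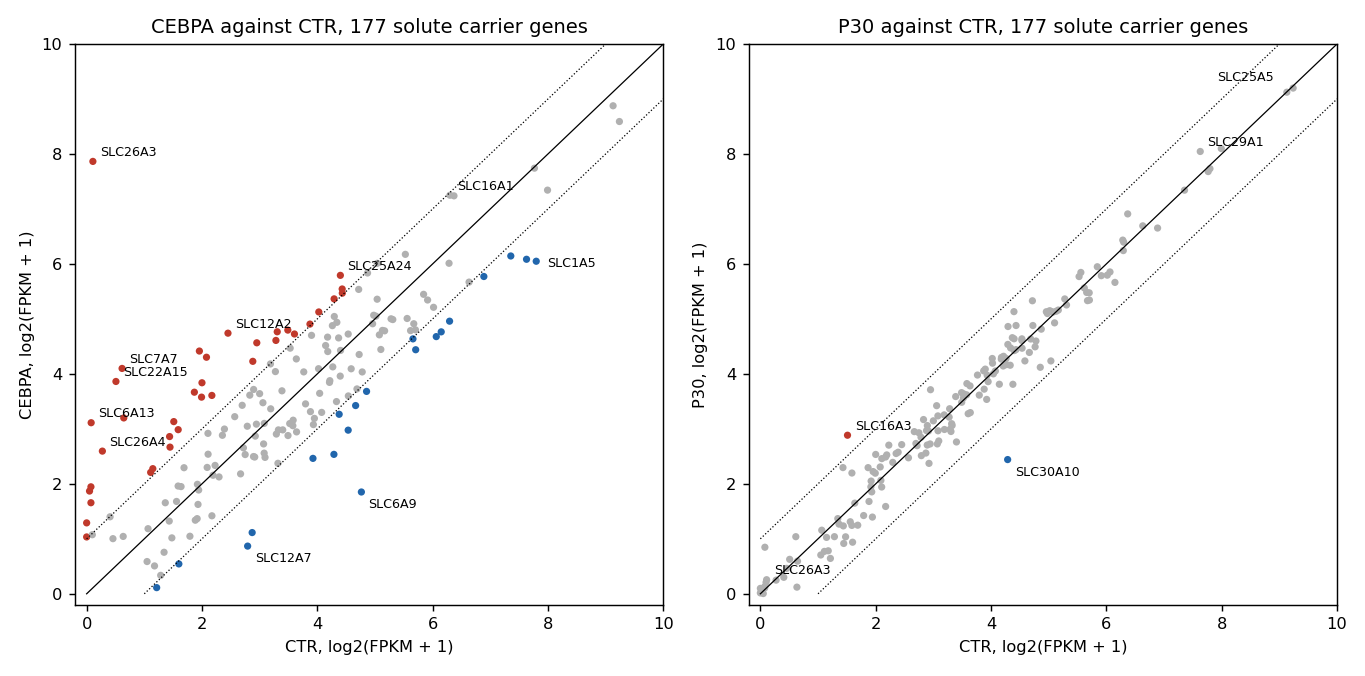
Level of the 177 solute carrier genes as log2(FPKM + 1), with CTR on the x axis and CEBPA (left) or P30 (right) on the y axis; each point is 1 gene with 1 pooled value per group, the solid line marks equal levels and the dotted lines a 2-fold difference (red higher, blue lower). On the left 36 genes lie on or above the upper dotted line and 20 on or below the lower, and on the right 1 gene each, SLC16A3 and SLC30A10.

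Levels of the genes past 2-fold are given as a description, since the choice by change and the 1 FPKM limit partly set them, and a gene under 1 FPKM in CTR cannot be 2-fold lower on this scale. The 36 higher genes had a median of 2.76 FPKM in CTR cells, 13.4 in CEBPA cells and 3.79 in P30 cells, and 11 of them were at or under 1 FPKM in CTR. The 20 lower genes had a median of 27 FPKM in CTR cells, 10.8 in CEBPA cells and 22.7 in P30 cells, and 16 of them were over 10 FPKM in CTR. Over all features, the median in CTR was 0.969 FPKM for the 1915 that were at least 2-fold higher and 19.5 FPKM for the 944 that were lower. The number of solute carrier genes over 10 FPKM was 88 in CTR cells, 93 in CEBPA cells and 87 in P30 cells. Summed over the 177 genes, FPKM was 5028 in CTR cells, 4505 in CEBPA cells and 5063 in P30 cells, which is 0.762%, 0.739% and 0.758% of the sum over all features. The genes over 100 FPKM numbered 8 in CTR cells, 7 in CEBPA cells and 9 in P30 cells, and SLC25A5, SLC25A3, SLC25A1 and SLC3A2 were over it in every group.

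Among classes with at least 5 genes, the median change in CEBPA vs CTR ran from 0.95 in the monocarboxylate and carboxylate transporters to -0.74 in the nucleoside transporters. Iron, copper and magnesium transporters had a median of 0.82, sugar transporters of 0.58 and organic ion, peptide and vesicular transporters of 0.29. Zinc transporters stood at 0.08 and mitochondrial carriers at -0.14, with fatty acid transporters at -0.27 and vitamin and choline transporters at -0.36. The medians of the ion exchangers (-0.10) and of the amino acid transporters (-0.18) became positive, at 0.12 and 0.17, when genes at or under 1 FPKM were kept, and that of the ion exchangers was 0.46 among genes over 5 FPKM. Other medians kept their sign but depended on the limit. With genes at or under 1 FPKM kept, that of the monocarboxylate and carboxylate transporters was 0.43 and that of the iron, copper and magnesium transporters 0.34. Among genes over 5 FPKM the medians were 1.42 for the monocarboxylate and carboxylate class, 0.24 for iron, copper and magnesium, 0.32 for sugar, 0.75 for organic ion and -0.50 for fatty acid transporters. No direction is therefore given for the ion exchangers or the amino acid transporters as a whole. Each class held genes on both sides of no change except the fatty acid transporters, where all 6 were lower in CEBPA by less than 2-fold. Some of these changes were very small, at -0.04 for SLC27A1, -0.06 for SLC27A3 and -0.11 for SLC27A6. Those of SLC27A2, SLC27A4 and SLC27A5 were -0.44, -0.57 and -0.66.

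**Figure D2:**
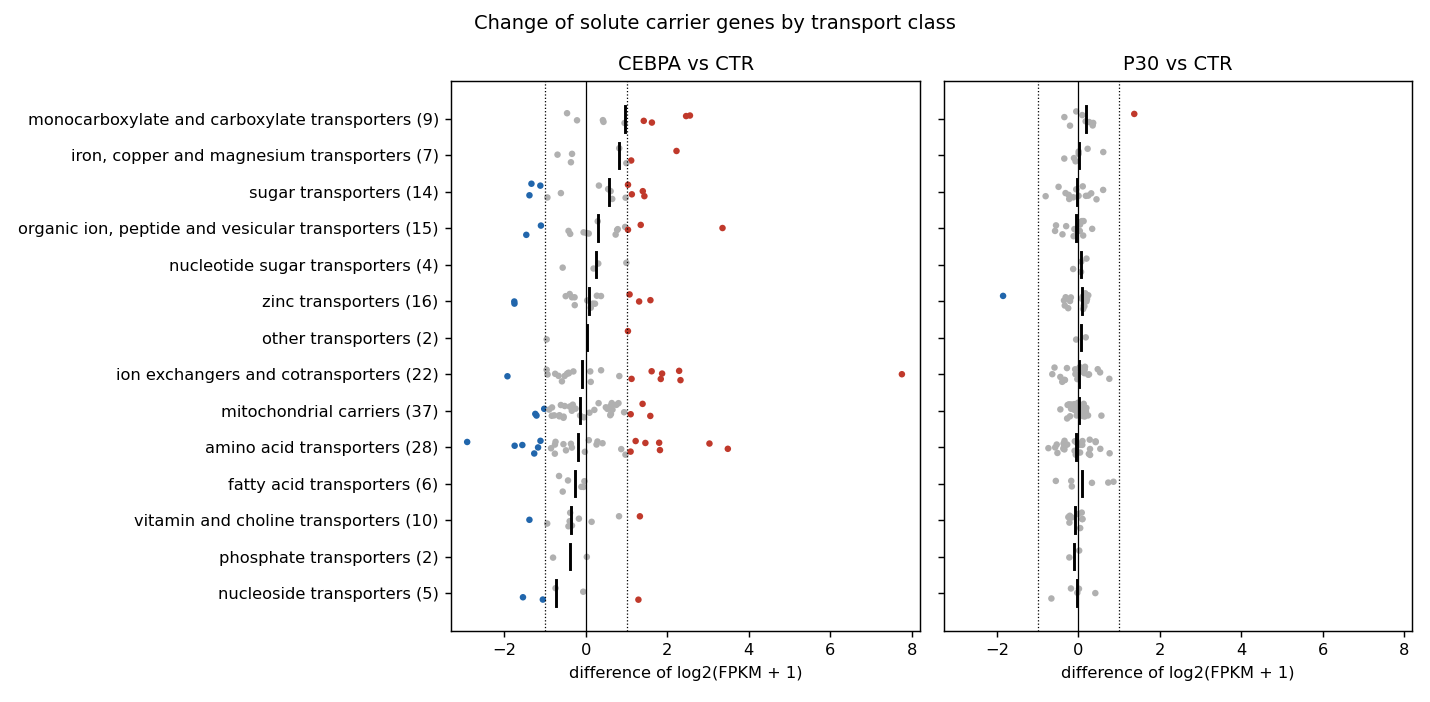
Change of each gene in CEBPA vs CTR (left) and P30 vs CTR (right) by transport class, with the number of genes in parentheses; each point is 1 gene, the thick bar is the class median, dotted lines mark a 2-fold difference, and red and blue mark genes past it. CEBPA changes spread from -2.91 to 7.76, while in P30 vs CTR a single gene lies past each dotted line.

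The amino acid transporters held both large positive changes and the lowest change of the set. Of 28 genes, 7 were at least 2-fold higher in CEBPA than in CTR, beside 13.9% of all features. Another 6 were at least 2-fold lower, beside 6.87%. Some members of the SLC7 family work only as the light subunit of a pair whose heavy subunit, SLC3A2 (also called CD98 or 4F2hc), brings it to the cell surface. SLC3A2 itself was level, at 217 FPKM in CTR cells, 213 in CEBPA cells and 204 in P30 cells. Its 5 light subunits in the set summed to 108 FPKM in CTR cells, 99.0 in CEBPA cells and 88.0 in P30 cells, also a small difference. The makeup of that sum, however, was different in CEBPA.

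SLC7A5 (LAT1), which carries large neutral amino acids such as leucine, was at 51.2 FPKM in CTR cells, 20.7 in CEBPA cells and 39.6 in P30 cells, a change of -1.27 in CEBPA vs CTR. SLC7A8 (LAT2), with a similar cargo, was at 27.9, 11.8 and 16.4 FPKM in the same order, a change of -1.17. Both neutral amino acid subunits were thus lowest in CEBPA and intermediate in P30. SLC7A7 (y+LAT1), which exchanges cationic for neutral amino acids, was at 0.531 FPKM in CTR cells, 16.1 in CEBPA cells and 1.05 in P30 cells, a change of 3.48, the second highest of the 177 genes. SLC7A11 (xCT), which takes up cystine in exchange for glutamate, was at 8.88, 26.2 and 6.74 FPKM, a change of 1.46. SLC7A6 (y+LAT2), close in function to SLC7A7, was at 19.7, 24.2 and 24.2 FPKM. As a share of the light subunit sum, SLC7A5 was 47.3% in CTR, 20.9% in CEBPA and 45% in P30, SLC7A11 was 8.21%, 26.5% and 7.66%, and SLC7A7 was 0.491%, 16.3% and 1.20%. SLC7A5 had the highest FPKM of the 5 in CTR and P30, and SLC7A11 in CEBPA.

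**Figure D3:**
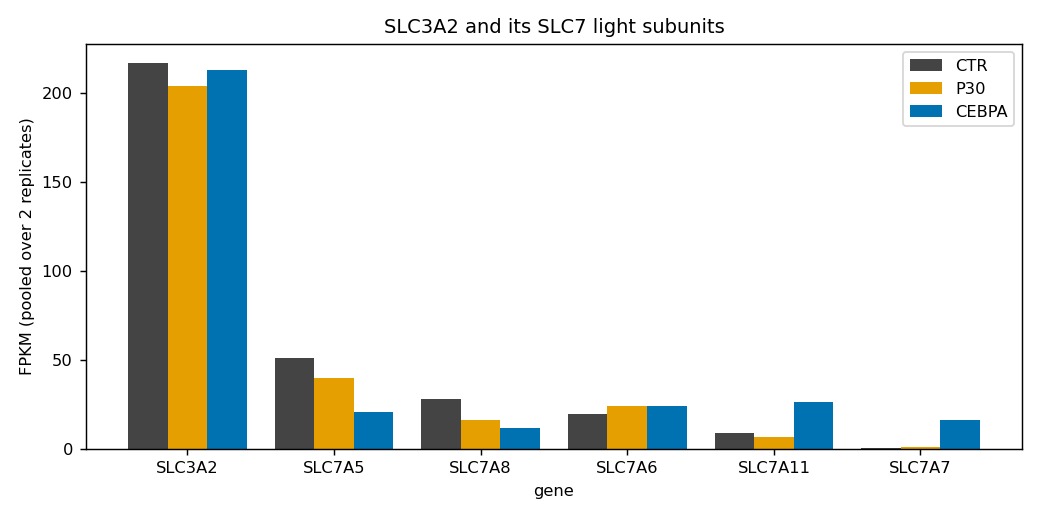
FPKM (y axis, linear from 0) of the heavy subunit SLC3A2 and of its 5 SLC7 light subunits in CTR, P30 and CEBPA; each bar is 1 pooled value with no error. SLC3A2 lies between 204 and 217 FPKM in all groups, SLC7A5 and SLC7A8 are lowest in CEBPA, and SLC7A11 and SLC7A7 are highest there, at 26.2 and 16.1 FPKM.

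The SLC7 members that act without a heavy subunit, the cationic amino acid transporters, also moved apart. SLC7A1 (CAT1) was at 14.3 FPKM in CTR cells, 7.44 in CEBPA cells and 14.7 in P30 cells, a change of -0.85 in CEBPA vs CTR. SLC7A3 (CAT3) was at 1.72, 5.35 and 0.886 FPKM, a change of 1.22, and its CEBPA vs P30 difference was 1.75.

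SLC6A9 (GlyT1), the glycine transporter that supplies the heme precursor glycine in developing red cells, was the lowest of the 177 genes in CEBPA vs CTR. It was at 26.2 FPKM in CTR cells, 2.61 in CEBPA cells and 21.5 in P30 cells. The change of -2.91 ranked 12 from the bottom among all 13749 features. SLC1A5 (ASCT2), a main route of glutamine uptake, was at 221 FPKM in CTR cells, 65.2 in CEBPA cells and 212 in P30 cells, a change of -1.75. Its relative SLC1A4 (ASCT1), which carries alanine, serine and cysteine, was at 19.8, 8.61 and 13 FPKM, a change of -1.11. SLC43A1 (LAT3), a facilitator of neutral amino acids, was at 22.2, 6.87 and 23.9 FPKM, a change of -1.56. In P30 vs CTR, SLC6A9, SLC1A5 and SLC43A1 each differed by less than 0.3.

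Other amino acid transporters were higher in CEBPA, several of them from very low levels. SLC6A13 (GAT2), a transporter of the neurotransmitter GABA, was at 0.0558 FPKM in CTR cells, 7.64 in CEBPA cells and 0.799 in P30 cells, a change of 3.03. SLC1A3 (EAAT1), a glutamate transporter, was at 0.0353, 2.65 and 0.0032 FPKM, and SLC6A16, whose cargo is not known, was at 1.16, 3.62 and 0.707 FPKM. SLC36A4 (PAT4), an amino acid transporter, was at 2.65 FPKM in CTR cells, 11.7 in CEBPA cells and 3.91 in P30 cells, a change of 1.80. Sodium-coupled glutamine transporters of family SLC38 were high in all groups and did not reach 2-fold: SLC38A2 (SNAT2) was at 81.7, 150 and 119 FPKM, and SLC38A1 (SNAT1) at 31.9, 63.5 and 34.2 FPKM, changes of 0.87 and 0.97. The 15 amino acid transporters under 2-fold ranged from -0.85 to 0.97.

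The mitochondrial carriers of family SLC25, which move metabolites across the inner mitochondrial membrane, were the most abundant class. Their FPKM summed to 2148 in CTR cells, 1660 in CEBPA cells and 2153 in P30 cells, from 42.7% of the solute carrier sum in CTR to 36.8% in CEBPA and 42.5% in P30. Of 37 genes, 3 were at least 2-fold higher in CEBPA, beside 13.9% of all features, and 3 at least 2-fold lower, beside 6.87%. The other 31 ranged from -0.90 to 0.94. The 3 most abundant carriers were all lower in CEBPA than in CTR. SLC25A5 (ANT2), which exchanges ADP for ATP, was at 603 FPKM in CTR cells, 384 in CEBPA cells and 586 in P30 cells. SLC25A3, the phosphate carrier, was at 559, 469 and 557 FPKM, and SLC25A1, the citrate carrier, at 254, 161 and 273 FPKM. Their changes of -0.65, -0.25 and -0.65 were all under 2-fold. SLC25A4 (ANT1), the ADP/ATP carrier of muscle and heart, was at 19.2, 29.6 and 21.2 FPKM and so was higher in CEBPA, by 0.60, where SLC25A5 was lower.

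SLC25A39, a carrier needed for mitochondrial glutathione, was at 163 FPKM in CTR cells, 69.7 in CEBPA cells and 161 in P30 cells, a change of -1.21. SLC25A42, which brings coenzyme A into mitochondria, was at 24.4, 9.73 and 20.0 FPKM, and SLC25A17, a carrier of the peroxisome membrane, at 49.5, 23.9 and 43.7 FPKM. All 3 were lower in CEBPA, by 1.21, 1.24 and 1.02 on the log2 scale. SLC25A24, which exchanges ATP-magnesium for phosphate, was at 20.1, 54.4 and 23.9 FPKM, a change of 1.39. The uncoupling protein relatives SLC25A14 (UCP5) and SLC25A27 (UCP4) were at 15.3, 33.9 and 17.3 FPKM and at 0.0529, 2.15 and 0.0930 FPKM, changes of 1.10 and 1.58. SLC25A38, needed for glycine import, was at 30.1, 29.1 and 34 FPKM, and SLC25A28 (mitoferrin-2), an iron importer, at 13.9, 25 and 16 FPKM, both under 2-fold.

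Among the sugar transporters, 4 of 14 genes were at least 2-fold higher in CEBPA, beside 13.9% of all features. Another 3 were at least 2-fold lower, beside 6.87%. SLC2A1 (GLUT1), the main glucose transporter of red cells, was at 69.9 FPKM in CTR cells, 26.2 in CEBPA cells and 49.7 in P30 cells, a change of -1.38. SLC2A3 (GLUT3), a glucose transporter of high affinity found in neurons and white blood cells, was at 20.6, 43.3 and 28.4 FPKM, a change of 1.03. In CTR and P30 the FPKM of SLC2A1 was above that of SLC2A3, and in CEBPA the order was the reverse. SLC2A14 (GLUT14), next to SLC2A3 on chromosome 12 and nearly identical to it, was at 2.01, 6.92 and 3.58 FPKM. Reads of this pair may have been split between the genes, so their separate values are uncertain.

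SLC2A13, a proton-coupled inositol transporter, was at 3.50 FPKM in CTR cells, 11.2 in CEBPA cells and 4.61 in P30 cells, and SLC2A12 (GLUT12) at 1.22, 3.84 and 1.04 FPKM, changes of 1.44 and 1.13. SLC37A4, the transporter that brings glucose 6-phosphate into the endoplasmic reticulum, was at 77.4, 30.1 and 74.7 FPKM, a change of -1.34. SLC50A1 (SWEET1), a sugar transporter, was at 117, 53.6 and 99.6 FPKM, a change of -1.12. The other 7 genes of the class, among them SLC5A6, a vitamin transporter that belongs to a sugar transporter family by sequence, ranged from -0.94 to 0.98.

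Of the 9 monocarboxylate and carboxylate transporters, 4 were at least 2-fold higher in CEBPA, beside 13.9% of all features, none was at least 2-fold lower, beside 6.87%, and the other 5 ranged from -0.46 to 0.95. Their FPKM summed to 102 in CTR cells, 214 in CEBPA cells and 117 in P30 cells. Most of that sum was SLC16A1 (MCT1), a proton-coupled carrier of lactate and pyruvate, at 77.8, 151 and 83.2 FPKM, a change of 0.95. SLC16A3 (MCT4), the carrier that exports lactate from glycolytic cells, was at 1.85 FPKM in CTR cells, 7.77 in CEBPA cells and 6.38 in P30 cells. On the log2(FPKM + 1) scale it was the only one of the 177 genes at least 2-fold higher in P30 vs CTR, where its change of 1.37 ranked 64 among all features, and its change in CEBPA vs CTR was 1.62. The CEBPA and P30 levels differed by 0.25. Both changes of SLC16A3 use the same pooled CTR value, so they are not independent.

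SLC16A5 had a smaller difference of the same kind, at 3.30 FPKM in CTR cells, 4.81 in CEBPA cells and 4.50 in P30 cells, with changes of 0.43 in CEBPA and 0.35 in P30. The 3 other SLC16 genes past 2-fold in CEBPA vs CTR were high in CEBPA alone. SLC16A10 (TAT1), a facilitator of aromatic amino acids, was at 2.88 FPKM in CTR cells, 20.3 in CEBPA cells and 3.67 in P30 cells, a change of 2.46 in CEBPA vs CTR. SLC16A4, a family member of uncertain cargo, was at 0.562, 8.18 and 0.509 FPKM, a change of 2.55. SLC16A9, a carrier linked to carnitine efflux, was at 1.71, 6.26 and 1.35 FPKM, a change of 1.42. Each of these 3 genes differed by less than 0.3 between P30 and CTR.

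The ion exchangers and cotransporters held the highest change of all. In CEBPA, 7 of 22 genes were at least 2-fold higher, beside 13.9% of all features, and 1 at least 2-fold lower, beside 6.87%. SLC26A3 (DRA), which exchanges chloride for bicarbonate and is best known from the colon, was at 0.0779 FPKM in CTR cells, 232 in CEBPA cells and 0.194 in P30 cells. Its change of 7.76 in CEBPA vs CTR ranked 7 among all 13749 features. In CEBPA it had the third highest FPKM of the 177 genes, after SLC25A3 and SLC25A5, while in the other groups it was under the 1 FPKM limit. The summed FPKM of the class was 204 in CTR cells, 435 in CEBPA cells and 211 in P30 cells, and the CEBPA excess was less than the level of SLC26A3.

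SLC26A4 (pendrin), a related exchanger of chloride, iodide and bicarbonate, was at 0.208 FPKM in CTR cells, 5.04 in CEBPA cells and 0.188 in P30 cells, a change of 2.32. The genes are neighbours on chromosome 7, where GRCh37 places SLC26A4 at chr7:107301273-107358254 on the plus strand and SLC26A3 at chr7:107405912-107443670 on the minus strand, with 47657 bases between them. SLC26A8, known from the testis, was at 0.0529, 2.85 and 0.0757 FPKM, and SLC26A2, a sulfate transporter, at 3.0, 13.3 and 4.79 FPKM, changes of 1.87 and 1.84. The other 4 SLC26 genes were under 2-fold. SLC26A6 was the lowest of them in CEBPA vs CTR, at 22.2, 11.1 and 21.1 FPKM.

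The windows of 250 bases upstream of the transcript start are shown for these neighbours, for SLC6A13, SLC22A15 and SLC16A4 as other genes high in CEBPA and under 1 FPKM in CTR, and for SLC6A9, the lowest gene. They are from RefSeq on GRCh38.p14, a later build than that of the expression values, and run 5′ to 3′ on the gene's strand. Only genes with a single window in the RefSeq table were eligible. SLC7A7, also high in CEBPA and under 1 FPKM in CTR, was not eligible and is not shown. Capitals mark matches to TTNNGNAA on either strand, a loose form of the letters bound by C/EBP proteins.
SLC26A3, chr7:107803224-107803473, minus strand: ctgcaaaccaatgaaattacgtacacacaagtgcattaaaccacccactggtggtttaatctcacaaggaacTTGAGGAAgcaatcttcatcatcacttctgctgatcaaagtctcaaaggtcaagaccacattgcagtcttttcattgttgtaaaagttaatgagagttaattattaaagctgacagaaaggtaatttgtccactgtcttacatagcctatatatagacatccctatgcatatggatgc
SLC26A4, chr7:107660578-107660827, plus strand: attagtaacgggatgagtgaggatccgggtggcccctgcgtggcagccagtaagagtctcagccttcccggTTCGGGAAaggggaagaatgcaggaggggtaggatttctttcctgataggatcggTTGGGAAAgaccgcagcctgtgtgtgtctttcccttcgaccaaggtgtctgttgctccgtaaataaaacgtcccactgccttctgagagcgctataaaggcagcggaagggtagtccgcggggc
SLC6A13, chr12:262837-263086, minus strand: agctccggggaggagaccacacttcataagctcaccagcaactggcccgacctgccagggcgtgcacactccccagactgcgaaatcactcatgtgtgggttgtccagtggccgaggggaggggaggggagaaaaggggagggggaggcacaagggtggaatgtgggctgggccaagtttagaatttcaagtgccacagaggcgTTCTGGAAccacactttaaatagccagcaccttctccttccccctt
SLC22A15, chr1:115976263-115976512, plus strand: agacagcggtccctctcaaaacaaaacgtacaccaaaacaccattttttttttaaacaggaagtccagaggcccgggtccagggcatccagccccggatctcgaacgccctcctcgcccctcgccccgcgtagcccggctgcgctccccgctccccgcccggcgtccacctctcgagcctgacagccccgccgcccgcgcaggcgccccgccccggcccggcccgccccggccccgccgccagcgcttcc
SLC16A4, chr1:110391027-110391276, minus strand: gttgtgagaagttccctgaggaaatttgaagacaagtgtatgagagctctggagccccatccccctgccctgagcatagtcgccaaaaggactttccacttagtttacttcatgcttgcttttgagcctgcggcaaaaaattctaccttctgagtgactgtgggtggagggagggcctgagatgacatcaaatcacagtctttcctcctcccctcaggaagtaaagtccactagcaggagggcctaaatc
SLC6A9, chr1:44031463-44031712, minus strand: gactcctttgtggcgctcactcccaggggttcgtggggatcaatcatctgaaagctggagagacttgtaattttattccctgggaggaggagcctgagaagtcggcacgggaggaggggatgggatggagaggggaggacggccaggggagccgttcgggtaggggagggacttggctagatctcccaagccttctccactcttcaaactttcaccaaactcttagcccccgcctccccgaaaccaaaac

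The SLC26A3 window held TTGAGGAA at 178 to 171 bases before the start. The SLC26A4 window held TTCGGGAA at 179 to 172 and TTGGGAAA at 124 to 117 bases before it, and the SLC6A13 window TTCTGGAA at 46 to 39 bases. The windows of SLC22A15, SLC16A4 and SLC6A9 held no match, nor did those of SLC16A10 and SLC12A2, also among the highest changes, or of SLC12A7, the second lowest. None of these windows held GATAA, the letters bound by GATA factors, on either strand. TTNNGNAA is common, in 33.2% of all 35116 windows of the RefSeq table. For the solute carriers, 145 of 177 genes were matched, with 213 windows because some genes have several starts, and 25.8% of these windows held it. It was in 16 of 42 windows (38.1%) of genes at least 2-fold higher in CEBPA vs CTR, in 4 of 34 (11.8%) of those at least 2-fold lower and in 25.5% of the others. GATAA was in 20.4% of all windows, 12.2% of solute carrier windows, 7.14% of the higher and 5.88% of the lower genes' windows. A match to either motif can overlap a match to the other, a match is a description of letters and not of binding, and windows of a gene overlap in sequence.

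The cation-chloride cotransporters of family SLC12, which set cell volume and chloride, moved apart. SLC12A2 (NKCC1), which brings sodium, potassium and chloride into cells, was at 4.47 FPKM in CTR cells, 25.7 in CEBPA cells and 5.56 in P30 cells, a change of 2.29. SLC12A7 (KCC4), a potassium-chloride exporter, was at 5.92, 0.824 and 4.71 FPKM, a change of -1.92. SLC4A2 (AE2), an exchanger of chloride and bicarbonate like SLC26A3, was at 98.1, 49.9 and 102 FPKM, a change of -0.96 in CEBPA vs CTR and of -1.02 in CEBPA vs P30. The 14 genes of the class under 2-fold in CEBPA vs CTR ranged from -0.96 to 0.82.

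The summed FPKM of the 5 nucleoside transporters was 231 in CTR cells, 89.4 in CEBPA cells and 293 in P30 cells. Most of it was SLC29A1 (ENT1), the equilibrative transporter that also carries nucleoside drugs such as cytarabine into cells, at 197, 66.9 and 263 FPKM. Its change was -1.54 in CEBPA vs CTR, 0.42 in P30 vs CTR and -1.96 in CEBPA vs P30. SLC29A2 (ENT2) was at 26.4, 15.4 and 23.2 FPKM and the lysosomal SLC29A3 at 5.58, 5.30 and 5.47 FPKM. SLC29A4, which also carries monoamines, was at 2.03, 0.457 and 0.916 FPKM, a change of -1.06. The concentrative transporter SLC28A2 was listed at 0 in CTR and was at 1.45 FPKM in CEBPA and 0.0109 in P30.

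The 4 nucleotide sugar transporters of the Golgi, family SLC35A, stayed under 2-fold in CEBPA vs CTR, from -0.57 for SLC35A4 to 0.99 for SLC35A5. SLC35A2, which supplies UDP-galactose, was at 22.2 FPKM in CTR cells, 25.4 in CEBPA cells and 23.4 in P30 cells.

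Of the 16 genes in the zinc families SLC30 and SLC39, 3 were at least 2-fold higher in CEBPA, beside 13.9% of all features. Another 2 were at least 2-fold lower, beside 6.87%, and the other 11 ranged from -0.49 to 0.37. SLC30A10, a member that is known to export manganese, was at 18.5 FPKM in CTR cells, 4.80 in CEBPA cells and 4.43 in P30 cells. On the log2(FPKM + 1) scale it was the only one of the 177 genes at least 2-fold lower in P30 vs CTR, where its change of -1.85 ranked 8 from the bottom among all features, beside -1.75 in CEBPA vs CTR. CEBPA and P30 differed by 0.09, so the groups with either isoform lay together below CTR. Both changes of SLC30A10 use the same pooled CTR value, so they are not independent. SLC30A3, which fills synaptic vesicles with zinc, was at 6.31, 1.16 and 4.90 FPKM, a change of -1.76 in CEBPA vs CTR.

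SLC30A7 and SLC30A6, zinc transporters of the Golgi, were at 2.98, 10.9 and 3.57 FPKM and at 18.6, 40.2 and 22.2 FPKM, changes of 1.58 and 1.07. The importer SLC39A6 was at 10.2, 26.8 and 11.6 FPKM, a change of 1.31. The most abundant importers, SLC39A4 and SLC39A1, were under 2-fold, at 76.9, 63.5 and 85.4 FPKM and at 56.4, 42.6 and 60.8 FPKM. The class sum was nearly equal, 352 FPKM in CTR cells, 348 in CEBPA cells and 351 in P30 cells.

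Both copper transporters of family SLC31 were higher in CEBPA. SLC31A1 (CTR1), the copper importer of the plasma membrane, was at 20.6 FPKM in CTR cells, 45.7 in CEBPA cells and 20.7 in P30 cells, a change of 1.11. SLC31A2 (CTR2), its relative of intracellular membranes, was at 3.22, 18.7 and 3.95 FPKM, a change of 2.22. These genes are neighbours on chromosome 9, 57403 bases apart. The iron genes of the class did not reach 2-fold. SLC11A2 (DMT1), which brings iron into the cytosol, was at 34, 26.7 and 34.2 FPKM, and SLC40A1 (ferroportin), the iron exporter, at 25.3, 45.4 and 39.2 FPKM. The magnesium transporters SLC41A1, SLC41A2 and SLC41A3 changed by -0.70, 0.99 and -0.37. SLC48A1, a heme transporter of the endolysosome placed among the other transporters, was at 24.8, 12.2 and 23.8 FPKM, a change of -0.96.

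The organic ion, peptide and vesicular transporters had 3 of 15 genes at least 2-fold higher in CEBPA, beside 13.9% of all features. Another 2 were at least 2-fold lower, beside 6.87%, and the other 10 ranged from -0.43 to 0.96. SLC22A15, a member of the organic cation family, was at 0.422 FPKM in CTR cells, 13.5 in CEBPA cells and 0.544 in P30 cells, a change of 3.35. SLC17A5 (sialin), which exports sialic acid from lysosomes, was at 6.37, 17.7 and 6.82 FPKM, a change of 1.35. SLC17A7 (VGLUT1), which fills vesicles with glutamate, was at 14.2, 4.51 and 10.6 FPKM, a change of -1.46. SLC22A17, a receptor for the protein lipocalin 2, was at 1.32, 0.0807 and 0.562 FPKM, a change of -1.10. The lysosomal SLC15A4, which carries histidine and peptides, was at 8.67, 15.5 and 8.27 FPKM and under 2-fold.

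In the vitamin and choline class 1 of 10 genes was at least 2-fold higher in CEBPA, beside 13.9% of all features. Another 1 was at least 2-fold lower, beside 6.87%. SLC19A2, a thiamine transporter, was at 8.73 FPKM in CTR cells, 23.4 in CEBPA cells and 9.31 in P30 cells, a change of 1.33. SLC44A2, a choline transporter-like protein that carries the human neutrophil antigen HNA-3, was at 65.8, 24.6 and 56.8 FPKM, a change of -1.38. SLC52A2, a riboflavin transporter, was at 34.9, 26.5 and 34.8 FPKM, and the reduced folate carrier SLC19A1 at 17.6, 13.7 and 19 FPKM. The phosphate importer SLC20A1 was at 63.7, 36 and 54.5 FPKM, while its relative SLC20A2 was at 20.2, 20.5 and 20.5 FPKM. Of the fatty acid class SLC27A2, which activates very long chain fatty acids, was at 20.1, 14.6 and 34.1 FPKM, with a CEBPA vs P30 difference of -1.17. SLC33A1, the acetyl-coenzyme A transporter of the endoplasmic reticulum, was at 13.6, 29 and 15.6 FPKM, a change of 1.03.

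**Figure D4:**
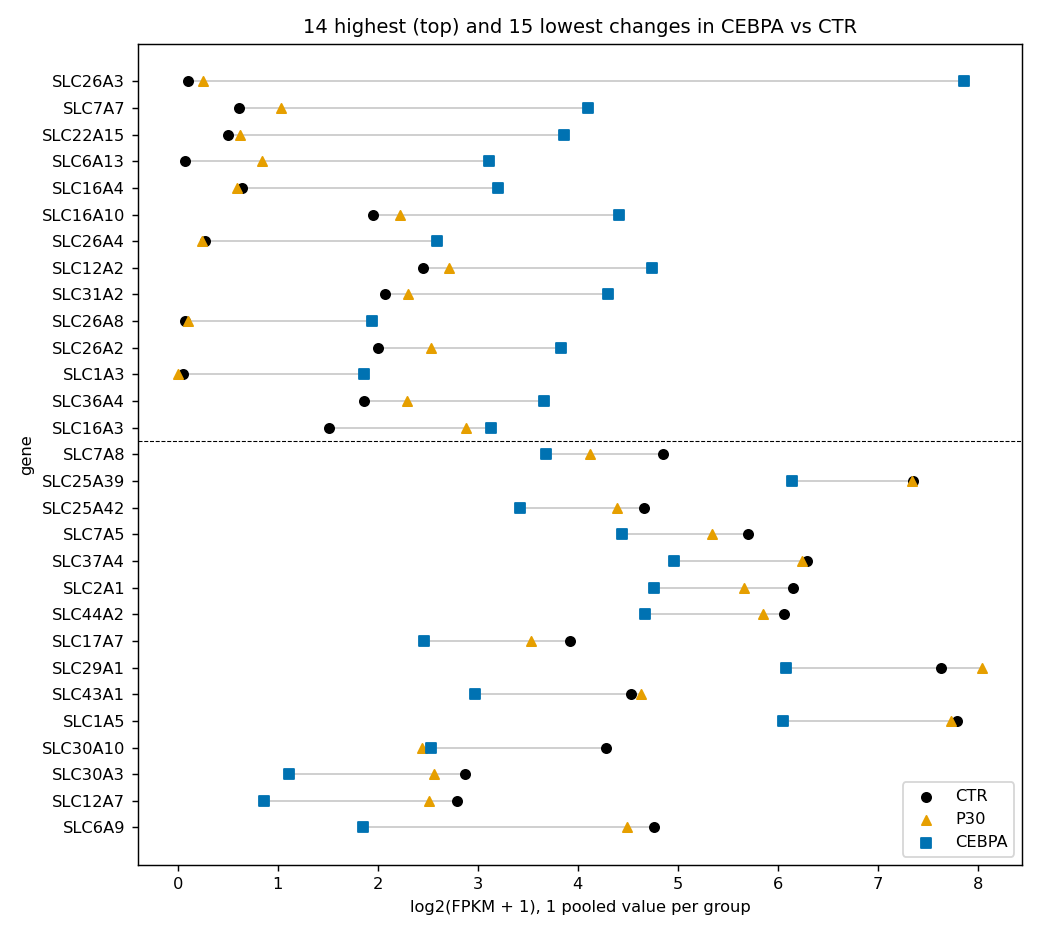
Levels as log2(FPKM + 1) of the 14 solute carrier genes with the highest and the 15 with the lowest change in CEBPA vs CTR, with 1 pooled value per group (circle CTR, triangle P30, square CEBPA) and the dashed line between both sets. SLC26A3 spans 7.76 units; the P30 value lies near CTR for most genes, and at SLC16A3 and SLC30A10 it lies near CEBPA.

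Values in CEBPA vs P30 rest on the same CEBPA libraries as those in CEBPA vs CTR, so only the values themselves are given side by side. SLC26A3 had differences of 7.76 against CTR and 7.61 against P30, SLC22A15 of 3.35 and 3.24, SLC7A7 of 3.48 and 3.06, and SLC6A9 of -2.91 and -2.64. Some genes passed 2-fold against P30 and not against CTR. SLC37A3, a relative of SLC37A4, was at 31.8 FPKM in CTR cells, 40.01 in CEBPA cells and 17.8 in P30 cells, with differences of 0.32 and 1.12. SLC10A3, SLC41A2 and SLC25A34 were 1.02, 1.10 and 1.05 above P30 and 0.96, 0.99 and 0.60 above CTR. SLC2A1 and SLC7A5, in turn, were 1.38 and 1.27 below CTR and 0.90 below P30, since their P30 level lay between the other groups.

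Several solute carrier genes of other families lie within 100 kb of each other on GRCh37. SLC38A1 and SLC38A2 on chromosome 12 both changed by close to 1 in CEBPA vs CTR (0.97 and 0.87). SLC6A12, a betaine and GABA transporter 6050 bases from SLC6A13, was at 0.552 FPKM in CTR cells, 1.06 in CEBPA cells and 0.0874 in P30 cells, a change of 0.41 beside the 3.03 of its neighbour. SLC5A6 and SLC30A3 on chromosome 2 moved in opposite directions, by 0.65 and -1.76. Neighbours thus included pairs with like and with unlike changes.

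Some members of the superfamily carry other symbols and were outside the name rule. Of a list of 35 such genes, 24 had a row and 22 passed the 1 FPKM limit. In CEBPA vs CTR 4 of the 22 were at least 2-fold higher in CEBPA and 5 at least 2-fold lower, beside 13.9% and 6.87% of all features, and the median change was -0.05. The ammonia channel and Rh blood group genes of the red cell membrane were lower in CEBPA: RHAG was at 437 FPKM in CTR cells, 127 in CEBPA cells and 217 in P30 cells, RHCE at 88.2, 15 and 52.6 FPKM, and RHD at 55.2, 7.10 and 34.4 FPKM. RHCE and RHD are near-identical, so reads may have been split between them. The mitochondrial uncoupling protein gene UCP2 was at 117, 32.4 and 92.4 FPKM, a change of -1.81. Higher in CEBPA were FLVCR2, a member of the feline leukemia virus receptor family (24, 82.1 and 22.9 FPKM), XPR1, the phosphate exporter (29, 92.8 and 26.9 FPKM), NPC1, which moves cholesterol out of lysosomes (14.9, 43.7 and 16.4 FPKM), and CTNS, the lysosomal cystine exporter (7.98, 18 and 6.99 FPKM). In P30 vs CTR 2 of the 22 were at least 2-fold lower, the organic anion transporter gene SLCO2B1 by 1.59 and RHAG by 1.01 on the log2 scale, and 0 were higher.

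The 1 FPKM limit cut through genes of similar level. Just inside it were SLC2A9, at 1.00 FPKM in CEBPA, SLC22A16 at 1.05 and SLC6A12 at 1.06 in CEBPA, SLC13A4 at 1.07 in CTR and SLC2A6 at 1.11 in CEBPA. Just outside were SLC22A20, with a highest value of 0.998 FPKM in P30, SLC11A1 at 0.979 in P30, and SLC15A2, SLC23A1 and SLC7A4 at 0.954, 0.953 and 0.898 in CEBPA. SLC22A16, a carnitine transporter, was listed at 0 in CTR. In all, 14 of the 177 genes were at or under 1 FPKM in both CTR and P30 and entered through CEBPA alone.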

How the data were processed

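RNA from 6 samples of K562 cells was sequenced by strand-specific paired-end RNA-seq. Per the study's methods, reads were aligned to hg19 with TopHat and assembled with Cufflinks on Gencode. Cuffdiff then estimated expression and tested differences between groups. The submitters' processing notes name CASAVA 1.4, TopHat2 2.0 and Cuffdiff. Per the paper, the second sequencing run used a different Illumina instrument, and its libraries were prepared at an outside institute. The FPKM values were deposited by the authors in 3 tables, each with 1 pooled value per gene for 2 groups, and do not separate the runs. The library normalization and the rule that selected each table's rows are not given in the sources used here. Depth per sample is unknown from FPKM, so no interval is given. The labels and the paper name different RNA kits.

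Tables were joined by symbol (Python 3.11.15, pandas 2.3.3). Shared groups had the same values in every table, and 169 of the 177 genes were in all 3; for the other 8 the P30 vs CTR change was taken from the other tables. Differences of log2(FPKM + 1) were computed with a pseudocount of 1 among features over 1 FPKM in any group. A joined comparison of this kind was tested on simulated data. Named genes were the 3 most abundant of each class, the 15 highest and 15 lowest changes with CEBPA, every gene at least 2-fold changed in P30 vs CTR, the largest changes of each class, those at the limit and a list of 35 superfamily members under other symbols. Other genes named were chosen after their values were seen. Among them were most, but not all, of the rest of those at least 2-fold changed. Further ones were SLC7A1, SLC7A6, SLC16A5, SLC38A1, SLC25A4, SLC25A28, SLC25A38, SLC26A6, SLC37A3, SLC41A3 and SLC19A1. Some genes that this rule names are counted but not reported here by name. The genes, classes and lists were chosen with earlier results of these data known. Gene positions are from Gencode v44 on GRCh37, and 176 of 177 genes had a unique entry. Alternatives were another pseudocount, centring, other limits, summed rows and genes in all tables.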

Additional observations from a re-analysis of the deposited data

Results flagged for a closer look

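The tables also hold 33 further rows whose symbols start with SLC but do not follow the name rule, and 26 of them passed 1 FPKM. The SLCO genes of the list of superfamily members under other symbols are not counted among these 33. The 33 rows include lettered subfamilies, antisense RNAs and pseudogenes. They are listed because they lie outside the genes of the report and some were above the control group CTR. Of the 26, 4 were at least 2-fold higher in CEBPA, beside 13.9% of all features, 2 were at least 2-fold lower, beside 6.87% (SLC9A3R2 at -1.98 and SLC2A1-AS1 at -1.56), and 0 were at least 2-fold higher in P30. SLC51A and SLC51B, the subunits of an organic solute transporter that exports bile acids and steroids, were 2.94 and 1.32 higher on the log2(FPKM + 1) scale. SLC51A was at 0.151 FPKM in CTR cells, 7.82 in CEBPA cells and 0.255 in P30 cells, and SLC51B at 0.0500, 1.62 and 0.0414 FPKM. SLC35D1, a nucleotide sugar transporter of the endoplasmic reticulum, was 1.22 higher, at 8.60, 21.4 and 16.5 FPKM. SLC16A1-AS1, an RNA from the strand opposite SLC16A1, was 1.03 higher, at 3.13, 7.43 and 3.57 FPKM.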

How the results depend on the processing

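No paired analysis was possible because each group has 1 pooled value per gene; for the same reason leaving out a replicate and the replicate block were not run. For 20 counts and medians, 140 recomputed values were obtained. Of these, 127 stayed within 1.5 times (counts) or within 0.188 on the log2 scale (medians), which is the spread of P30 vs CTR over all features. Another 13 moved, and 0 reversed a called value. Summed rows could not move any of them, because no solute carrier symbol was repeated. Adding genes at or under 1 FPKM could hardly move the counts, since such genes cannot change by more than 1. In CEBPA vs CTR, keeping genes at or under 1 FPKM gave medians of 0.17 for amino acid transporters, 0.12 for ion exchangers, 0.34 for iron, copper and magnesium and 0.43 for monocarboxylate transporters, a setting that adds genes. A limit of 5 FPKM, which leaves fewer genes, gave -0.50 for fatty acid, 0.46 for ion exchangers, 0.24 for iron, copper and magnesium, 1.42 for monocarboxylate, 0.75 for organic ion and 0.32 for sugar transporters. Only genes in all 3 tables gave -0.42 for ion exchangers, since SLC26A3, SLC26A4 and SLC26A8 are then left out. A pseudocount of 0.1 gave 3 genes higher in P30 vs CTR (SLC16A3, SLC27A6 and SLC6A13) and 4 lower (SLC30A10, SLC22A17, SLC29A4 and SLC6A12), since low FPKM then weigh more. The 1567 recomputed changes of single genes covered 234 results. Of them 64 moved, all with a pseudocount of 0.1, and 0 called changes reversed. The other settings leave the change of a single gene as it is, drop the gene, or shift all genes by the same small amount. Only the pseudocount was therefore a check on single genes.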
